A study of Homo sapiens with 6 samples.

Results

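AluYa5, AluYa8, AluYb8, AluYb9 and AluYd8 are 5 young subfamilies of Alu, the short repeat that fills much of the human genome. They were chosen by their row names in a table of raw counts per repeat, where all 5 were found among 15600 rows. The table has 54 rows of Alu elements and monomers, of which 28 carry an AluY name, 17 an AluS name and 4 an AluJ name. All 5 members passed the filter on low counts in a fit of 4665 rows.

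Total RNA was sequenced from 6 libraries of H9, an established line of human embryonic stem cells, in 3 groups of 2. Primed cells were kept in mTESR medium. RSeT cells were kept in RSeT, a commercial medium for a naive-like state. RSeT+DT cells had RSeT medium with DZNep at 10 nM and TSA at 5 nM, and were harvested after 48 hours. DZNep blocks S-adenosylhomocysteine hydrolase and so lowers histone methylation, and TSA (trichostatin A) inhibits histone deacetylases. All groups are cells of this 1 line, and no group of RSeT cells with a single agent was among these samples. The labels leave the origin of the replicates unstated, and the p-values therefore reflect only how far these libraries differ from each other, which may be technical. Marker genes of the labelled cell type were not analysed here.

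Alu elements descend from 7SL RNA, the RNA of the signal recognition particle, and keep an internal promoter for RNA polymerase III. They encode no protein and are copied into new sites by the enzymes of LINE1 elements. AluJ is the oldest lineage, AluS came next and AluY is the youngest. The Ya and Yb branches of AluY account for most Alu insertions of recent human evolution, with AluYa8 a derivative of AluYa5 and AluYb9 a derivative of AluYb8. AluYd8 is a smaller branch of AluY with its own diagnostic changes.

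Sequence shared between Alu subfamilies limits how reads can be told apart. A row adds up every copy of its subfamily in the genome. Reads can be split between AluYa5 and AluYa8 or between AluYb8 and AluYb9, and a copy that lies in a transcribed gene also collects reads of that host transcript. How the authors treated such reads is not given in the sources used here.

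Counts summed over all repeats ran from 11520770 to 38312112 per library, the latter in RSeT replicate 1. Of these, Alu rows took 19.9% and 20.6% in primed, 18.4% and 18.8% in RSeT, and 14.8% and 15.5% in RSeT+DT cells. Small RNA, most of it 7SLRNA, took 26.4% and 24.4% in primed, 17.8% and 17.0% in RSeT, and 25.6% and 23.1% in RSeT+DT cells. A share of this size moves every other CPM (counts relative to the library's repeat total), so the members are given as CPM, after TMM scaling (edgeR's correction of library totals), and as a ratio to other Alu rows of the same library, which needs no scaling between libraries.

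The 5 members together took 0.308% and 0.273% of all Alu counts in primed cells, 0.453% and 0.407% in RSeT cells, and 0.567% and 0.525% in RSeT+DT cells. The 3 groups did not overlap on this scale, and the order was primed, RSeT, RSeT+DT. In CPM the members together stood at 614 and 563 in primed, 831 and 766 in RSeT, and 837 and 814 in RSeT+DT cells. There RSeT and RSeT+DT overlapped. The share of all rows whose groups separate, on this scale or in CPM, was not counted. AluYa5 held from 52.2% to 57.6% of the members' counts in the 6 libraries and AluYb8 from 34.7% to 39.7%, so a summed value follows these 2 rows. The files do not give copy numbers, so the counts of different subfamilies are not levels per copy.

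AluYa5, the larger of the Ya rows, stood at 343 and 311 CPM in primed, 457 and 400 CPM in RSeT, and 482 and 453 CPM in RSeT+DT cells. Both primed libraries were below all others, while 1 RSeT library lay within the range of the RSeT+DT libraries. The higher replicate exceeded the lower by 1.10, 1.14 and 1.06 times in primed, RSeT and RSeT+DT cells. AluYb8, the main row of the Yb branch, stood at 223 and 204 CPM in primed, 306 and 304 CPM in RSeT, and 290 and 302 CPM in RSeT+DT cells. Its primed libraries again lay below the other 4, and its RSeT libraries were slightly above those of RSeT+DT.

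AluYd8 stood at 14.2 and 12.0 CPM in primed, 26.5 and 23.0 CPM in RSeT, and 24.4 and 22.5 CPM in RSeT+DT cells, with the primed libraries below all others and the other groups overlapping. AluYb9 stood at 17.6 and 20.0 CPM in primed, 25.8 and 21.1 CPM in RSeT, and 25.4 and 20.5 CPM in RSeT+DT cells, with a narrow gap between primed and the rest. AluYa8 stood at 16.4 and 16.6 CPM in primed, 15.8 and 18.0 CPM in RSeT, and 15.2 and 15.7 CPM in RSeT+DT cells. It showed no gap between primed and RSeT, and its RSeT+DT libraries lay below all others by a narrow gap. These 3 rows rest on few reads. The lowest count was 164 for AluYd8 in primed replicate 2, with an exact 95% Poisson interval of 10.26 to 14.02 CPM, and AluYa8 in RSeT+DT replicate 2 had 181 counts (13.5 to 18.2 CPM). Such intervals cover counting error only.

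**Figure D1:**
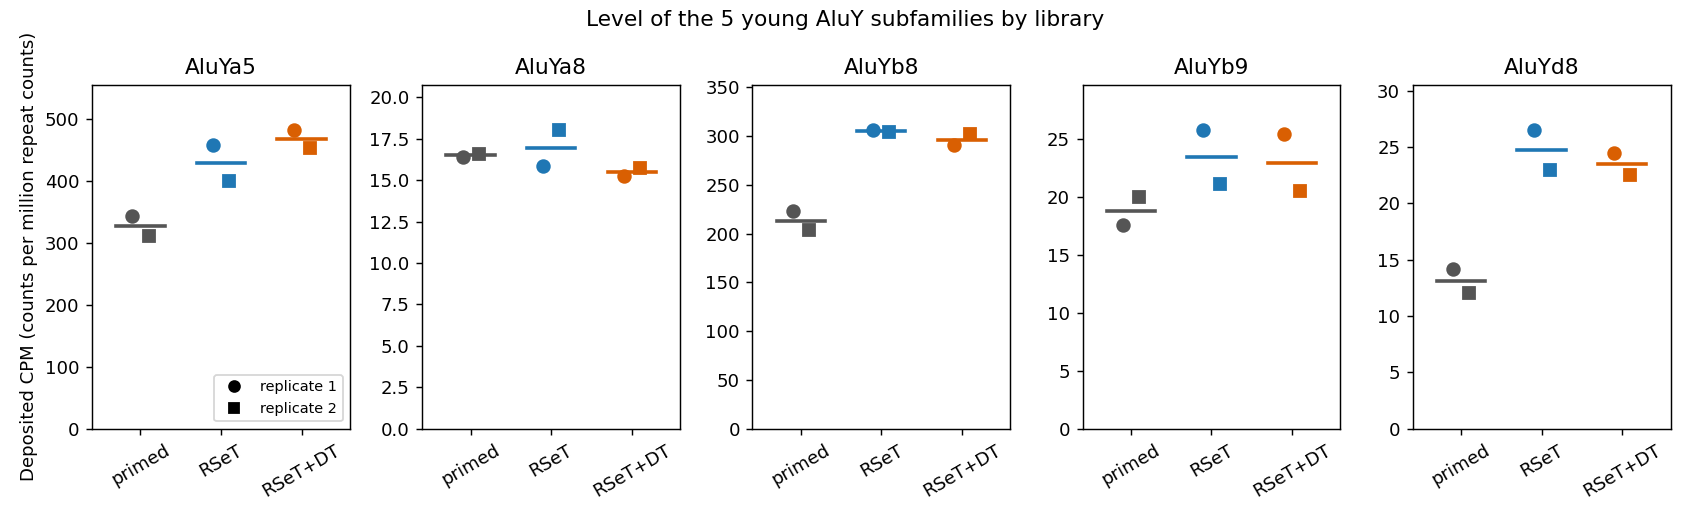
Deposited CPM of AluYa5, AluYa8, AluYb8, AluYb9 and AluYd8 (y axis, linear and from 0, own scale per panel) by group (x axis); circles are replicate 1, squares replicate 2 and lines the mean of 2. Primed libraries are the lowest for AluYa5, AluYb8, AluYb9 and AluYd8. AluYa8 stays between 15.2 and 18.0 CPM throughout, with the RSeT+DT libraries the lowest by a narrow gap.

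Divided by AluY, the parent row, AluYa5 was at 2.703% and 2.43% in primed, 3.84% and 3.34% in RSeT, and 4.94% and 4.40% in RSeT+DT cells. The 3 groups did not overlap. AluYb8 was at 1.76% and 1.60%, 2.57% and 2.54%, and 2.97% and 2.93% of AluY in the same order, again without overlap. AluYd8 was at 0.112% and 0.0943% in primed, 0.223% and 0.192% in RSeT, and 0.250% and 0.218% in RSeT+DT cells, so the last 2 groups overlapped. AluYb9 was at 0.139% and 0.156%, 0.217% and 0.177%, and 0.260% and 0.199%, with the last 2 groups overlapping too. AluYa8 was at 0.129% and 0.130%, 0.133% and 0.151%, and 0.156% and 0.152%. Its 3 groups did not overlap either, by narrow gaps, though it passed no test relative to AluY. The share of all rows that separate in this way was not counted.

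**Figure D2:**
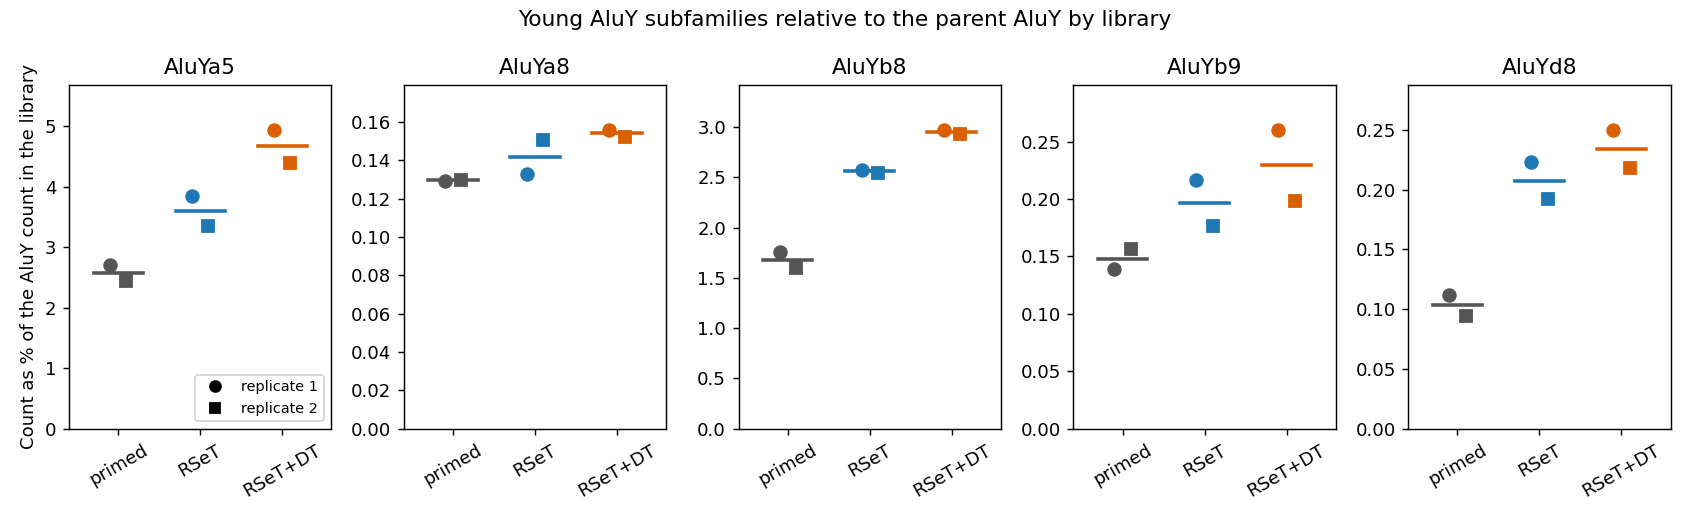
Count of each member as a percentage of the AluY count of the same library (y axis, linear and from 0, own scale per panel) by group (x axis); circles are replicate 1, squares replicate 2 and lines the mean of 2. AluYa5 and AluYb8 step up from primed to RSeT and again to RSeT+DT without overlap between groups, and so does AluYa8 by narrow gaps.

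RSeT against primed cells asks which rows differ between culture in RSeT and in mTESR medium. AluYd8, AluYb8, AluYa5 and AluYb9 rose and AluYa8 did not pass. In edgeR with TMM scaling and Benjamini-Hochberg adjustment over all 4665 rows, AluYd8 went from 13.1 ± 1.53 to 24.8 ± 2.50 CPM (SD, n = 2 each) with a log2 fold change of 1.05 (SE 0.11, adjusted p = 2.33e-08), a 2.08-fold rise. AluYb8 went from 213 ± 13.3 to 305 ± 1.41 CPM, a log2 fold change of 0.65 (SE 0.042, adjusted p = 2.03e-12). AluYa5 went from 327 ± 22.7 to 428 ± 40.3 CPM, a log2 fold change of 0.52 (SE 0.060, adjusted p = 8.23e-08).

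AluYb9 went from 18.8 ± 1.68 to 23.5 ± 3.30 CPM, with 0.48 (SE 0.11, adjusted p = 0.00116), and did not pass without RSeT replicate 1 (0.30, adjusted p = 0.115) or in limma with a pseudocount of 0.1 CPM (0.32, adjusted p = 0.0529). AluYa8 stood at 16.5 ± 0.136 and 16.9 ± 1.57 CPM, at a log2 value of 0.15 with TMM and -0.012 without small RNA, ribosomal RNA and simple repeats, neither passing (TMM: adjusted p = 0.258; 95% interval of the difference from -0.069 to 0.37). The members' count of 4 higher among 5 stands beside 46.6% of all tested rows called and 22.8% of all tested rows called higher. Among the 1232 rows other than simple repeats 51.1% were higher, so a rise as such was common there. By size of the log2 fold change AluYd8 ranked 1, AluYb8 3, AluYa5 4, AluYb9 5 and AluYa8 16 of 51 tested Alu rows. Without small RNA, ribosomal RNA and simple repeats, where 56.6% of 1151 rows were called, the same 4 members were higher, with AluYd8 at 0.90, AluYb8 at 0.48, AluYa5 at 0.36 and AluYb9 at 0.33.

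The medians of the other Alu lineages were smaller. With TMM, the median log2 fold change was 0.52 over the 5 members, 0.22 over 20 other AluY rows, 0.018 over 17 AluS rows, -0.031 over 4 AluJ rows and -0.012 over 4 monomers, against 0.17 over all rows other than simple repeats. Of the other AluY rows 10 rose and none fell with TMM, led by AluYh3a3 at 0.77, which went from 49.8 and 47.3 CPM to 79.0 and 71.3 CPM. AluYh9 (0.48), AluYi6 (0.34), AluYg6 (0.33) and AluYk11 (0.32) also rose. AluY itself (0.040), AluSx (0.012) and AluJb (-0.017) did not pass. These values turn with the scaling: without small RNA, ribosomal RNA and simple repeats AluY stood at -0.12 and AluSx at -0.15, both called lower, as were 16 of 17 AluS rows, all 4 AluJ rows and 4 of the 20 other AluY rows, while 5 other AluY rows were called higher and AluYh9 (0.32) did not pass.

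The ratio to the rest of the Alu class sets the members against a sum whose largest rows are AluJ and AluS rows. In primed cells AluJb took 11.9% of Alu counts on average, AluSx1 11.0%, AluSx 10.4% and AluSz 9.47%, and AluY 6.27%. With the summed count of the other Alu rows in place of the library total, 4 of the 5 members were higher in RSeT than in primed cells. In this fit 45.3% of all rows were called and 22% were higher. Among rows other than simple repeats 49.3% were higher, and 42.3% in the fit relative to AluY below. Of 20 other AluY rows 10 were also higher and 0 lower, the highest being AluYh3a3 (0.76), and 4 of 17 AluS rows were higher and 0 lower. AluYd8 stood at 1.05 (SE 0.12, adjusted p = 8.53e-07), AluYb8 at 0.64 (SE 0.045, adjusted p = 8.36e-10), AluYa5 at 0.52 (SE 0.068, adjusted p = 4.87e-06) and AluYb9 at 0.48 (SE 0.12, adjusted p = 0.00425). AluYb9 did not pass here without RSeT replicate 1 either (0.28, adjusted p = 0.154). AluYa8 stood at 0.15, not passing, with an interval of the difference from -0.072 to 0.37. Relative to AluY the same 4 were higher, at 1.01, 0.61, 0.48 and 0.44 for AluYd8, AluYb8, AluYa5 and AluYb9, with 45.9% of rows called, and AluYb9 again did not pass without RSeT replicate 1 (0.26, adjusted p = 0.144).

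Among the members, AluYd8 rose more than AluYa5. Its count per AluYa5 count went from 4.14% and 3.87% in primed to 5.81% and 5.75% in RSeT cells, a log2 difference of 0.52 (SE 0.17, adjusted p = 0.00578) in the fit scaled to AluYa5, where 60% of rows were called and only 4.31% were higher. This call did not pass without primed replicate 2 (0.48, adjusted p = 0.0665). In this fit AluYb8 (0.13), AluYb9 (-0.070) and AluYa8 (-0.36, adjusted p = 0.065) were not told apart from AluYa5. Their intervals were -0.17 to 0.43, -0.40 to 0.26 and -0.70 to -0.015. With replicate number added as a block, AluYb8 (0.13, SE 0.039, adjusted p = 0.00446) and AluYa8 (-0.37, SE 0.11, adjusted p = 0.0045) did pass. AluYa8 passed without RSeT replicate 2 (-0.54, adjusted p = 0.0193). These intervals are wide, as a fit scaled to 1 row takes that row's replicate spread into every other row.

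**Figure D3:**
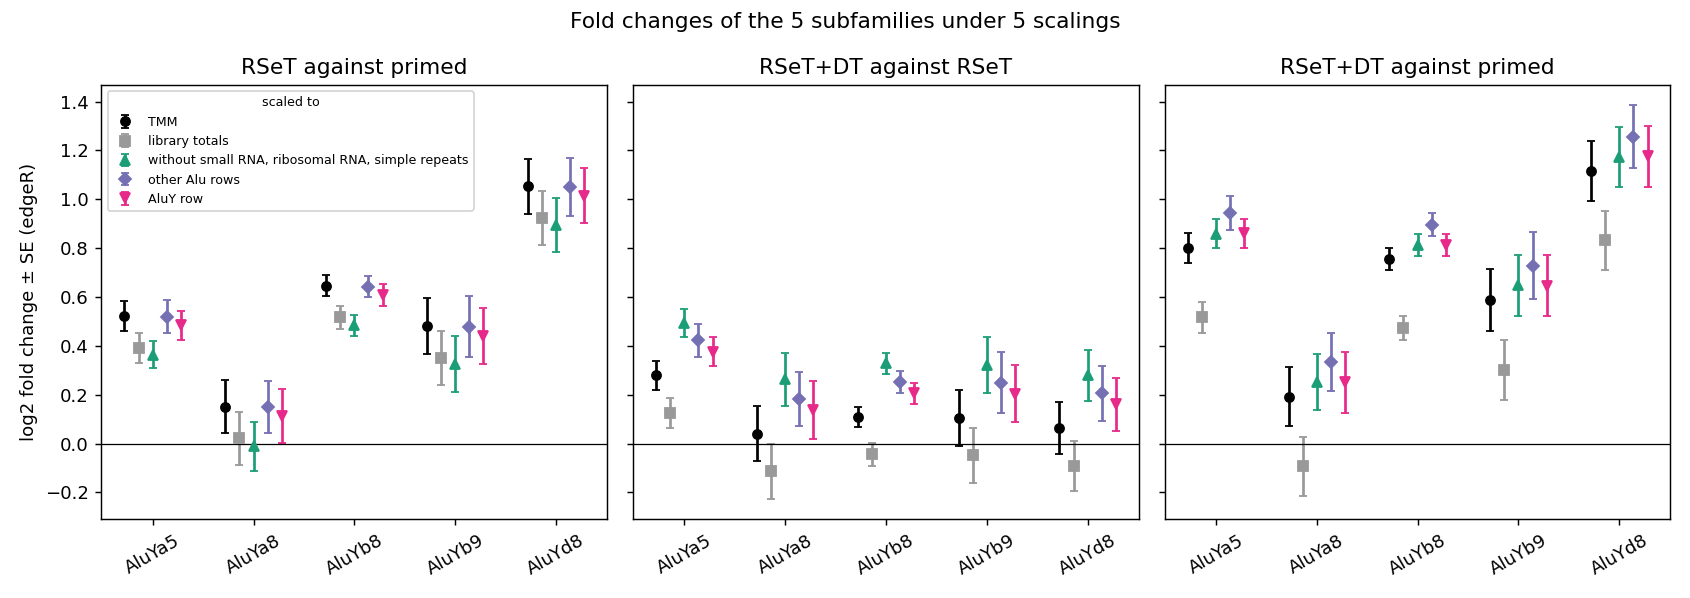
Log2 fold change with its SE (y axis, edgeR) of the 5 members (x axis) in the 3 comparisons (panels), scaled by TMM, by library totals, without small RNA, ribosomal RNA and simple repeats, to the other Alu rows and to AluY. In RSeT against primed cells the values of AluYd8, AluYb8, AluYa5 and AluYb9 lie above 0 under all 5 scalings, whereas in RSeT+DT against RSeT those of AluYa8, AluYb8, AluYb9 and AluYd8 lie below 0 with library totals.

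The comparison of RSeT+DT with RSeT addresses the change after 48 hours of both agents, and the answer for the members depended on the scaling. AluYa5 stood at 428 ± 40.3 CPM in RSeT and 468 ± 20.4 CPM in RSeT+DT cells, and AluYb8 at 305 ± 1.41 and 296 ± 8.52 CPM (SD, n = 2 each). AluYa5 was called higher with TMM, at a log2 fold change of 0.28 (SE 0.060, adjusted p = 0.000453), but not with library totals (0.13, adjusted p = 0.106). AluYb8 was called higher with TMM, at 0.11 (SE 0.042, adjusted p = 0.0384), and turned to -0.044 with library totals, not passing. The count of 2 higher among 5 stands beside 42.4% of all tested rows called and 25.1% of all tested rows called higher, with 6.49% higher among rows other than simple repeats.

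Neither call was firm with TMM. AluYa5 did not pass without RSeT replicate 2 (0.19, adjusted p = 0.0771), and AluYb8 did not pass without any 1 of the 4 libraries (0.10 to 0.13). In DESeq2 no member passed. AluYb9 (0.11), AluYd8 (0.063) and AluYa8 (0.041) did not pass with TMM and turned to -0.048, -0.091 and -0.11 with library totals. Their intervals with TMM ran from -0.13 to 0.34, from -0.16 to 0.28 and from -0.19 to 0.27. Without small RNA, ribosomal RNA and simple repeats, where 43.4% of rows were called, 4 members were higher, with AluYa5 at 0.49, AluYb8 at 0.33, AluYb9 at 0.32 and AluYd8 at 0.28, while AluYa8 (0.26, adjusted p = 0.0507) did not pass.

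Relative to the rest of the Alu class, AluYa5 and AluYb8 rose, but not alone. Of 20 other AluY rows 4 were called higher and 0 lower, the highest being AluYi6 (0.37). Of 17 AluS rows 3 were higher, with AluSq10 the highest (0.21), and 1 was lower, as were all 4 AluJ rows. AluYa5 rose against the other Alu rows by a log2 value of 0.42 (SE 0.068, adjusted p = 4.92e-05) and AluYb8 by 0.25 (SE 0.044, adjusted p = 0.000121), and both passed without each of the 4 libraries in turn and in DESeq2. The 2 members called stand beside 40.7% of all tested rows called and 31.7% of all tested rows called higher, with 13.3% higher among rows other than simple repeats. AluYb9 (0.25), AluYd8 (0.21) and AluYa8 (0.18) did not pass, with intervals from -0.015 to 0.51, from -0.033 to 0.44 and from -0.051 to 0.42. With 1 library left out AluYb9 ranged from 0.038 to 0.44, and it passed without RSeT+DT replicate 2 (0.42, adjusted p = 0.00611) and without RSeT replicate 1 (0.44, adjusted p = 0.0263). Relative to AluY, where 40.9% of rows were called, AluYa5 (0.38) and AluYb8 (0.21) rose as well, and AluYb9 (0.21) passed only without RSeT+DT replicate 2 (0.38) or RSeT replicate 1 (0.38). Relative to AluYa5 no other member passed in edgeR with group as the only term, with 27.5% of rows called. None of the 4 had an unadjusted p under 0.05 in that fit or passed in DESeq2. With replicate number added to the edgeR fit as a block, AluYb8 was lower than AluYa5 (-0.17, SE 0.039, adjusted p = 0.000281).

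The sign of the older lineages in this comparison turned with the scaling. With TMM, the median log2 fold change was 0.11 over the 5 members, -0.086 over the 20 other AluY rows, -0.14 over AluS, -0.21 over AluJ and -0.16 over monomers, against -0.22 over all rows other than simple repeats. With TMM 14 of 17 AluS rows, all 4 AluJ rows, all 4 monomers and 5 of 20 other AluY rows were called lower, and AluYi6 (0.23) and AluYf1 (0.094) higher, whereas without small RNA, ribosomal RNA and simple repeats 13 AluS rows, no AluJ row, 1 monomer and 8 other AluY rows were called higher and none lower. AluY went from -0.097 with TMM to 0.12, AluSx from -0.13 to 0.086 and AluJb from -0.19 to 0.025 under that scaling, all called except the last.

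RSeT+DT against primed cells compares the treated with the primed cells, and shares its libraries with the comparisons above. AluYd8 rose from 13.1 ± 1.53 to 23.5 ± 1.37 CPM (SD, n = 2 each), a log2 fold change of 1.12 after TMM (SE 0.12, adjusted p = 4.21e-08). AluYa5 rose by 0.80 (SE 0.061, adjusted p = 4.28e-11), AluYb8 by 0.76 (SE 0.044, adjusted p = 1.74e-13) and AluYb9 by 0.59 (SE 0.13, adjusted p = 0.000418). AluYb9 did not pass in limma on log2 CPM, at 0.27 with a pseudocount of 1 (adjusted p = 0.0564) and 0.28 with 0.1 (adjusted p = 0.0677). AluYa8 stood at 16.5 ± 0.136 and 15.5 ± 0.338 CPM, and its log2 value was 0.19 with TMM (adjusted p = 0.198) and -0.092 with library totals, neither passing. The 4 members higher stand beside 45.8% of all rows called and 25.1% higher, with 25.1% higher among rows other than simple repeats too. Library totals also gave 4 higher, with AluYd8 at 0.83, AluYa5 at 0.52, AluYb8 at 0.47 and AluYb9 at 0.30. Of all 4665 tested rows, 609 were higher and 1787 lower with library totals. The scaling without small RNA, ribosomal RNA and simple repeats gave 4 members higher as well, with 61.9% of rows called.

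Against the other Alu rows all 5 members were higher in RSeT+DT than in primed cells, beside 45.4% of rows called and 32.6% higher. Among rows other than simple repeats 38.1% were higher. Of 20 other AluY rows 12 were also higher and 0 lower, the highest being AluYh3a3 (0.84), and 5 of 17 AluS rows were higher and 1 lower. AluYd8 stood at 1.26, AluYa5 at 0.94, AluYb8 at 0.90, AluYb9 at 0.73 and AluYa8 at 0.33 (SE 0.12, adjusted p = 0.0276). The call of AluYa8 was lost when any 1 of the 4 libraries was left out (0.32 to 0.35) and did not pass in DESeq2 (0.33, adjusted p = 0.0924). Relative to AluY, 4 members passed with 45.6% of rows called, and AluYa8 (0.25, adjusted p = 0.0967) did not. In that fit 29.2% of rows other than simple repeats were higher. Relative to AluYa5, AluYa8 was lower by a log2 value of -0.61 (SE 0.18, adjusted p = 0.00179), where 69.6% of rows were called and 66% were lower. Its count per AluYa5 count was 4.78% and 5.34% in primed and 3.16% and 3.47% in RSeT+DT cells. This call did not pass without RSeT+DT replicate 1 (-0.54, adjusted p = 0.0607).

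**Figure D4:**
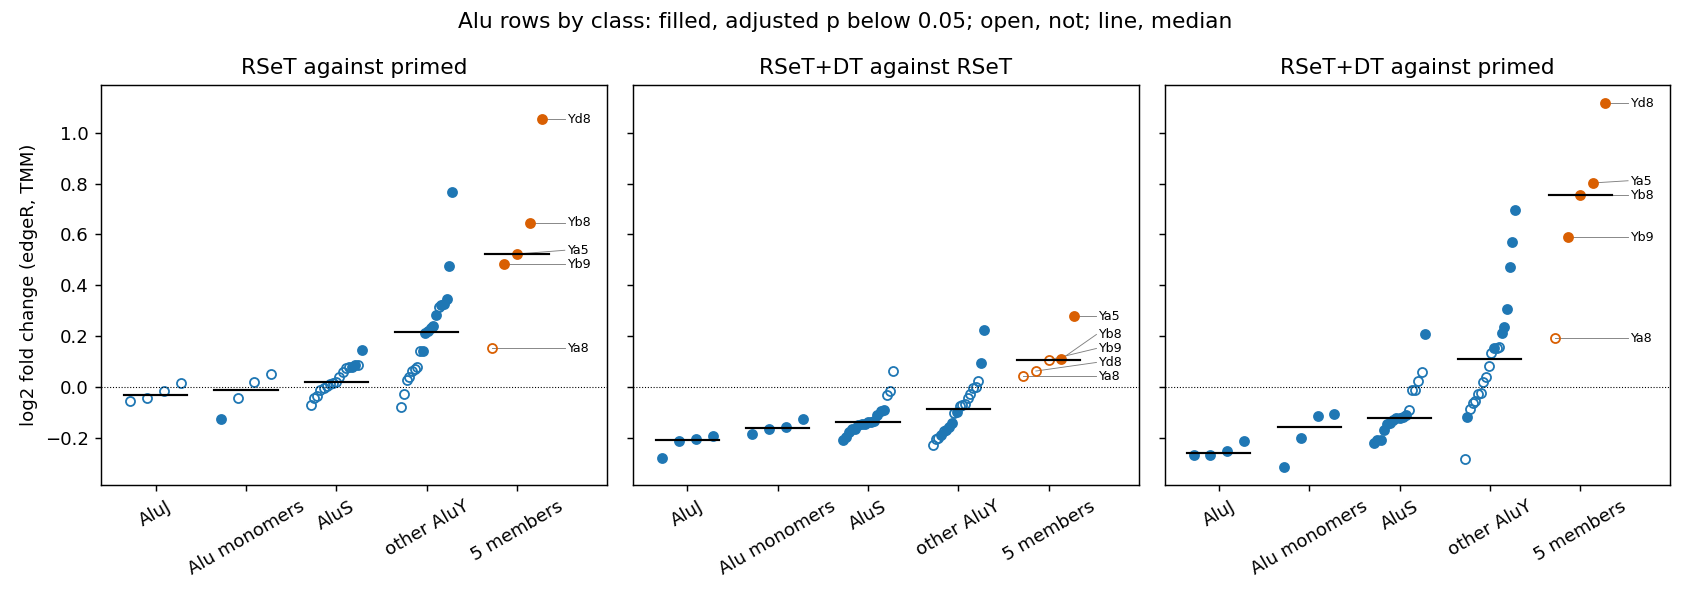
Log2 fold change with TMM scaling (y axis, edgeR) of every tested Alu row, by class (x axis), in the 3 comparisons (panels); each point is 1 row, filled where adjusted p is below 0.05, with the class median as a line. AluJ, monomers and AluS lie near or below 0 (medians from -0.26 to 0.018), the other AluY rows higher (-0.086 to 0.22) and the 5 members highest (0.11 to 0.76); the signs of AluS and AluJ turn with the scaling, as given above. Thin lines join each member's point to its name.

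RNAs related to Alu by origin or by copying were also measured. L1HS, the LINE1 subfamily still active in humans, was at 886 and 879 CPM in primed, 2384 and 2387 CPM in RSeT, and 2462 and 2399 CPM in RSeT+DT cells. Its log2 fold change was 1.57 for RSeT against primed cells with TMM, where L1PA2 (1.24) and L1PA3 (0.74) also rose. For RSeT+DT against RSeT L1HS was at 0.18 with TMM, called higher, but at 0.027 with library totals (adjusted p = 0.734), not passing. BC200, a brain-enriched RNA derived from an Alu monomer, was at 97.4 and 106 CPM in primed, 181 and 170 CPM in RSeT, and 234 and 225 CPM in RSeT+DT cells, with no overlap between the 3 groups, and rose by 0.92 and 0.54 in these comparisons. 7SLRNA, the parent RNA, fell by 0.43 in RSeT against primed cells and rose by 0.64 in RSeT+DT against RSeT. SVA elements, composites with an Alu-like part that LINE1 also copies, did not all rise in RSeT against primed cells. With TMM SVA_F (0.41), SVA_A (0.33), SVA_E (0.18) and SVA_D (0.12) rose, while SVA_C (0.045) and SVA_B (-0.078) did not pass. Without small RNA, ribosomal RNA and simple repeats SVA_E (0.022) and SVA_D (-0.039) did not pass. Of the 11 rows in this list 8 rose and 1 fell in that comparison with TMM. That stands beside 22.8% of all tested rows higher and 51.1% of rows other than simple repeats. Without small RNA, ribosomal RNA and simple repeats 5 of 9 rose and 2 fell, beside 30.1% of rows higher and 26.5% lower. RSeT+DT against RSeT had 5 called higher and 4 lower with TMM, the lower being SVA_C (-0.15), SVA_A (-0.12), L1PA3 (-0.11) and SVA_B (-0.091). Relative to the other Alu rows 7 were higher and 0 lower, and relative to AluY 6 and 0. Without small RNA, ribosomal RNA and simple repeats 8 of 9 were higher and 0 lower. The shares of all tested rows called higher in these fits were 25.1%, 31.7%, 29.7% and 22.7% in turn. Among rows other than simple repeats they were 6.49%, 13.3%, 9.91% and 22.7%. The part of these RNAs in the members' values was not tested.

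The rows most like each member were sought among 1138 rows other than simple repeats, by the root mean square difference of centred log2 CPM over the 6 libraries. AluYb8 was nearest to LTR9D (0.050), HERV17-int (0.057) and HSMAR1 (0.074). AluYa5 was nearest to X6A_LINE (0.077), AluYb8 (0.10) and U13 (0.10). AluYd8 was nearest to tRNA-Tyr-TAC (0.054), MLT1E1A-int (0.059) and MamGypLTR3a (0.089). AluYb9 was nearest to GSATII (0.10), UCON26 (0.10) and AluYh9 (0.12). AluYa8 was nearest to SVA_D (0.040), LTR47A (0.042) and LTR41B (0.049). AluYb8 was thus the one member among another member's nearest rows.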

How the data were processed

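Total RNA libraries of H9 cells (3 groups of 2) came from an Illumina TruSeq stranded preparation, per the labels' protocols. The authors deposited raw counts per repeat name and a CPM table. The 7383 deposited CPM rows match counts rescaled by each library's repeat total within 0.00442 CPM. Trimmomatic 0.39, STAR 2.7.8a, featureCounts, Subread 2.14.2 and GRCh38/hg38 are listed in the submitters' processing notes. What each did, and the repeat annotation, multi-mapping and strand settings, are not given in sources used here.

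The counts went into edgeR 4.0.16 under R 4.3.3 (quasi-likelihood test), all 6 libraries in 1 fit with group as the only term, filterByExpr (10 counts, total 15), TMM factors and Benjamini-Hochberg adjustment over all rows at 0.05. There were 3 residual degrees of freedom before moderation, and the common biological coefficient of variation was 5.49%. SEs are the log2 fold change over the root of F. An exact permutation test of 2 against 2 libraries cannot go below p = 0.333. Further fits took the other Alu rows, AluY or AluYa5 as library size. Alternatives used other scalings, filters, DESeq2 1.42.0, limma 3.58.1, a replicate block, thinning and fewer libraries. The test with TMM was also run on counts simulated at the fitted spread, with equal numbers of rises and falls. That setting cannot check the choice of scaling or the fits scaled to Alu rows, and its outcome is not given here. Replicates differed by more than sampling noise (chi-square per degree of freedom 4.87 to 26.3).

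All 5 members are named. Related rows are named in part, with fixed anchors, so a row that passed may go unnamed. Members and lists were chosen with earlier results of these data known. A sequence comparison is not reported here.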

Additional observations from a re-analysis of the deposited data

How the results depend on the processing

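In RSeT against primed and RSeT+DT against primed cells, the number of members called with TMM stayed within 1.5 times under every alternative run. In RSeT+DT against RSeT it was 2 with TMM, 4 without small RNA, ribosomal RNA and simple repeats, 1 with RLE size factors, no filter, a mean count of at least 50, only the groups compared or RSeT replicate 1 thinned, and 0 with library totals, limma (pseudocount 1 or 0.1) or DESeq2. Leaving out 1 library gave 0 to 1 there. Relative to AluYa5 that gave 0 to 2 in RSeT against primed and 0 to 1 in RSeT+DT against primed cells. The cause was not tested.

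Signs turned as follows. In RSeT+DT against RSeT, with library totals, limma plus 1 and limma plus 0.1 in turn, AluYa8 was at -0.11, -0.12 and -0.13, AluYb8 at -0.044, -0.044 and -0.044, AluYb9 at -0.048, -0.031 and -0.032, and AluYd8 at -0.091, -0.072 and -0.075. AluYa8 was also at -3.53e-05 with RLE size factors, -0.0087 in DESeq2, -0.0010 with no filter and -0.016 at a mean count of at least 50. In RSeT+DT against primed cells AluYa8 was at -0.092, -0.086 and -0.091 and 7SLRNA at -0.077, -0.078 and -0.078 under the same 3 settings. In RSeT against primed cells AluY was at -0.092 and AluSx at -0.12 under all 3, AluSx at -0.011 at a mean count of at least 50, and AluJb at 0.0095 with RLE size factors and in DESeq2. Without small RNA, ribosomal RNA and simple repeats, RSeT against primed cells had AluYa8 at -0.012, AluY at -0.12 and AluSx at -0.15. RSeT+DT against RSeT then had AluY at 0.12, AluSx at 0.086, AluJb at 0.025 and SVA_F at 0.19, and RSeT+DT against primed cells AluY at 0.0016. Values with the same sign as with TMM but larger in size under this scaling included AluJb (-0.18) in RSeT against primed cells. In RSeT+DT against RSeT they included all 5 members, with AluYa5 at 0.49, AluYb8 at 0.33, AluYb9 at 0.32, AluYd8 at 0.28 and AluYa8 at 0.26. All 5 members were also larger in RSeT+DT against primed cells, from 0.25 for AluYa8 to 1.17 for AluYd8.

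With 1 library left out, values that turned in RSeT+DT against RSeT were AluYa8 (-0.056, range to 0.12), AluYb9 (-0.087 and -0.0100, range to 0.29), AluYd8 (-0.024 and -0.021, range to 0.20) and AluYb9 relative to AluY (-0.010, range to 0.38). Others were AluJb (-0.027 to 0.0012) and AluYb9 relative to AluYa5 (-0.23 to 0.094) in RSeT against primed cells, and AluYb8 relative to AluYa5 (-0.12 to 0.030) in RSeT+DT against primed cells. The far ends with 1 library left out were 0.26 for AluYa8, 0.065 for AluY and 0.031 for AluSx in RSeT against primed cells, and -0.10 for AluY, -0.14 for AluSx, -0.20 for AluJb and -0.045 for SVA_F in RSeT+DT against RSeT.

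Of all rows tested, 1064, 1170 and 1173 were higher and 1110, 810 and 962 lower with TMM in RSeT against primed, RSeT+DT against RSeT and RSeT+DT against primed cells. Higher counts moved to 683 (library totals), 651 and 632 (limma plus 1 and 0.1) in the first, 713 and 704 (limma) in the second, and 609, 623 and 628 in the third, where lower counts moved to 1787, 2050 and 1995. DESeq2 gave 686 lower in the first. With 1 library left out the highest counts were 913, 1065 and 1153 higher and 891, 720 and 801 lower. Without small RNA, ribosomal RNA and simple repeats, where fewer rows are tested, 346, 261 and 372 were higher and 305, 239 and 341 lower, and the median log2 value shifted by -0.16, 0.22 and 0.058.

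The replicate numbers are shared between groups. Over all rows that passed the filter, same-numbered libraries did not deviate together (r of 0.050, -0.040 and 0.0015). Most of these rows are simple repeats, so the r values do not describe the members. In CPM, replicate 1 was above replicate 2 in all 3 groups for AluYa5 and AluYd8. It was below in all 3 for AluYa8, and the order varied for AluYb8 and AluYb9. Whether same-numbered libraries are paired is not stated in the labels. With the replicate block, the members called relative to AluYa5 went from 1 to 3 in RSeT against primed, from 0 to 1 in RSeT+DT against RSeT and from 1 to 2 in RSeT+DT against primed cells. No other count of members moved with the block. The members gained were AluYa8 and AluYb8 in the first, AluYb8 in the second and AluYd8 (0.32) in the third. The share of all rows called in these fits was not counted, so the members' counts have no background beside them. Depth limits AluYa8, AluYb9 and AluYd8 most.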

Other observations

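AluYb10, AluYb8a1 and AluYb11, other rows of the Yb branch, had 0 counts in all 6 libraries. A count of 0 allows up to 3 counts per library, or 0.0783 CPM in the deepest library and 0.260 CPM in the shallowest. How the authors' annotation assigns copies between these names and AluYb8 is not known here.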
